A study of Mus musculus with 18 samples.

Results

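The genes that build sterols and fatty acids were followed across 18 RNA-seq libraries of mouse embryonic fibroblasts (MEFs), primary cells grown from minced embryos. The list held 33 genes, named for their roles as known targets or regulators of the SREBP transcription factors. Of these, 32 were found by symbol or older symbol among the 55401 gene identifiers of the count table. Hmgcs1 could not be matched to the count table, so its expression was not analysed here and it enters only the promoter counts. They comprised 16 enzymes of the sterol pathway, 6 genes of SREBP control and sterol transport, and 10 genes of fatty acid synthesis, and 31 had enough counts to be tested.

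The libraries formed 6 groups of 3, in 2 genetic series. In the S6K1 series, wild-type (WT) MEFs carried the empty vector (EV) or a vector for constitutive RAS, and S6K1 knockout (KO) MEFs carried RAS. In the S6K1/S6K2 series, WT MEFs again carried EV or RAS, and MEFs lacking both kinases (double knockout, DKO) carried RAS. Per the study's methods, knockout mice were C57BL/6, embryos were taken at mid-gestation, and head and viscera were removed. Cells were infected with retrovirus and selected with puromycin. The methods name pBABEpuro for EV and MSCV-neo for the oncogenic HRAS mutant, so the vectors may differ in more than the insert. EV and RAS libraries of the same number are called a line here, after the labels, which number the WT cells. By the methods, KO and WT embryos shared a mother, whereas DKO and WT embryos came from different breedings. The knockout cells were analysed with RAS only, so kinase loss was measured in cells with RAS.

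SREBP proteins are made as membrane precursors in the endoplasmic reticulum. When sterols are low, SCAP carries the precursor to the Golgi, where proteases release the active factor, and when sterols are high, the INSIG proteins hold SCAP back. SREBP2 is known mainly for the cholesterol pathway and SREBP1 for fatty acid synthesis and desaturation. Because INSIG1 is itself a target, its transcript is commonly read with those of the sterol enzymes.

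Promoter windows show what the members shared in sequence. RefSeq (GRCm38.p6) gave a window of 300 bases, from 250 before to 50 after the gene start, for 26 of the 33 listed genes. Letters were searched on both strands and counted once per gene over all its windows. The CCAAT box (CCAAT) was found in 22 of 26 genes (84.6%), against 41.1% of all 27025 genes with a window. The GC box (GGGCGG) was also found in 22 of 26 (84.6%), against 38.2%. An E-box (CACGTG) was found in 6 of 26 (23.1%) against 8.09%, and the core of the sterol regulatory element (TCACNCCAC) in 1 of 26 (3.85%), Hmgcs1, against 1.44%. Only this form of the element was searched, within these windows, so the count does not show that the other members lack one. Member windows were richer in G and C, with a median of 61.3% against 52.7% over all genes, which bears on the GC box. Whether the motifs are used was not measured.

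The windows of 4 members on which the results below turn are printed 5′ to 3′ with these motifs in capitals, and none of the capitals overlap. They are Cyp51 (chr5:4104648-4104947, minus strand) and Insig1 (chr5:28071162-28071461, plus strand), whose levels varied between EV lines, and Scap (chr9:110333038-110333337, plus strand) and Elovl6 (chr3:129532136-129532435, plus strand), which changed with RAS in both series.
Cyp51: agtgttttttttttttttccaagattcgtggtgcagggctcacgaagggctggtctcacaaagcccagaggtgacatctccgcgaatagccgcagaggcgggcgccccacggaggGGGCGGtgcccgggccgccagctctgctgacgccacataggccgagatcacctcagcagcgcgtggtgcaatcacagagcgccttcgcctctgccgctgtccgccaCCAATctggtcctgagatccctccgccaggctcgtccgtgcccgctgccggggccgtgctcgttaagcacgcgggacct
Insig1: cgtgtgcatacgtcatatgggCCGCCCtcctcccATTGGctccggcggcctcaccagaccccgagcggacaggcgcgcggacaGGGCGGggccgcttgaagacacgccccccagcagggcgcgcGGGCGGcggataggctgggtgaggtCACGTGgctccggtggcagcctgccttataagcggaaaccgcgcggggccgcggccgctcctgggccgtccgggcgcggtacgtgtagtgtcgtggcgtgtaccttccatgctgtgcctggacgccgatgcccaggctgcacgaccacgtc
Scap: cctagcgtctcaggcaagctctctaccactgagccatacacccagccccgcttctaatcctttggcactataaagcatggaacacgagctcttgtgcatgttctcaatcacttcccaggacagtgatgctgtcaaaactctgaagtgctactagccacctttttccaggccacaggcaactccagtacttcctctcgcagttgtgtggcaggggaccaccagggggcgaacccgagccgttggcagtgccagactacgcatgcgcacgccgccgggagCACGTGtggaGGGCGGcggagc
Elovl6: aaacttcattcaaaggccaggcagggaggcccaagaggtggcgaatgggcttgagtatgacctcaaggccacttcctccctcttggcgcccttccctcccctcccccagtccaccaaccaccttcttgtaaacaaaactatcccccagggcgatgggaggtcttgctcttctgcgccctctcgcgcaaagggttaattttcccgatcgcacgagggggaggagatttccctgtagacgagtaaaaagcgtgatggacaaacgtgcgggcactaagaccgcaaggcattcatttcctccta
The Cyp51 window held a GC box 135 bases and a CCAAT box 29 bases before the gene start. Insig1 had an E-box 101 bases before the start, a CCAAT box on the opposite strand and 3 GC boxes. Scap held an E-box and a GC box after this start, the first of its annotated starts, and the Elovl6 window held none of the letters searched.

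Total counts per library were between 8319445 and 14402442, and the level that 3 counts stand for, the limit for a gene without reads, was 0.209 to 0.357 CPM (counts relative to the library total). Levels below are CPM scaled by TMM within each series, and a call means an adjusted p under 0.05 in edgeR's quasi-likelihood test over all genes. Rps6kb1, which encodes S6K1, was at 23.6 to 37.0 CPM in KO RAS against 61.6 to 74.6 CPM in WT RAS, and Rps6kb2, which encodes S6K2, was at 2.68 to 3.04 CPM in DKO RAS against 24.1 to 28.9 CPM in WT RAS, in the direction of the labels, though the Rps6kb1 difference in KO cells passed only with the replicate block (edgeR adjusted p 0.234 without it and 0.000101 with it). Summed fibroblast markers were at 30019 to 33063 CPM in WT EV and 15040 to 15731 CPM in WT RAS of the S6K1 series, and at 30090 to 48253 and 13262 to 18104 CPM in the S6K1/S6K2 series. Mean Col1a1 went from 12125 to 3242 CPM and from 13824 to 3326 CPM, and Col1a2, Col3a1 and Pdgfrb were also lower with RAS in both series. Vim went the other way, from 3978 to 5199 and from 4531 to 5311 CPM, as did Pdgfra. Mean Dcn and Lum were higher with RAS in the S6K1 series and lower in the other, and Thy1 the reverse. All 12 proliferation markers had negative log2 fold changes with RAS in both series (medians −0.43 and −1.20). Called lower were 2 and 9 of them, where 6.09% and 12.7% of all tested genes were. The part of these shifts in the RAS changes of the sterol and fatty acid genes was not tested. Summed markers of hepatocytes, the classic site of these pathways, were at most 0.701 CPM. The 10 adipocyte markers summed to 34.6 to 287 CPM, of which Adipoq, Plin1, Cidec, Lep and Retn were at most 0.273 CPM each, and Lpl, Cd36, Fabp4, Cebpa and Pparg were expressed. Summed macrophage markers were between 40.0 and 1761 CPM and differed between lines. In such bulk samples, fewer cells of a type and less RNA per cell cannot be told apart.

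To compare genes with each other, mean CPM over the 18 libraries was divided by the summed length of the gene's exons (NCBIM37 annotation). This length joins the exons of all annotated transcripts, such as 10787 bases for Lss, so it can exceed that of the transcript expressed. Scd2, a stearoyl-CoA desaturase, had by far the highest level of the members at 163 CPM per kb. It was followed by Fads2 at 46.7, Scd1 at 43.7, Sc5d at 43.5 and Fads1 at 41.5 CPM per kb over all groups. Scd2 was first in each of the 6 groups, but the order behind it changed. Scd1, for example, was at 32.2 CPM per kb in WT EV and 53.5 in WT RAS of the S6K1/S6K2 series, and Fads2 at 61.5 and 40.5. After Sc5d, the tested sterol enzymes ran from 25.9 for Cyp51 down to 2.67 CPM per kb for Tm7sf2. Idi1, the isopentenyl diphosphate isomerase, was listed at 0 to 12 counts per library and was not tested. Of the 50-base stretches of its coding transcripts, 84.4% also matched elsewhere in the mouse genome, as did 62.2% for Fdps, 42.8% for Acat2, 36.7% for Me1, 32.7% for Insig1 and 22.7% for Fdft1, so levels of these genes are uncertain.

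**Figure D1:**
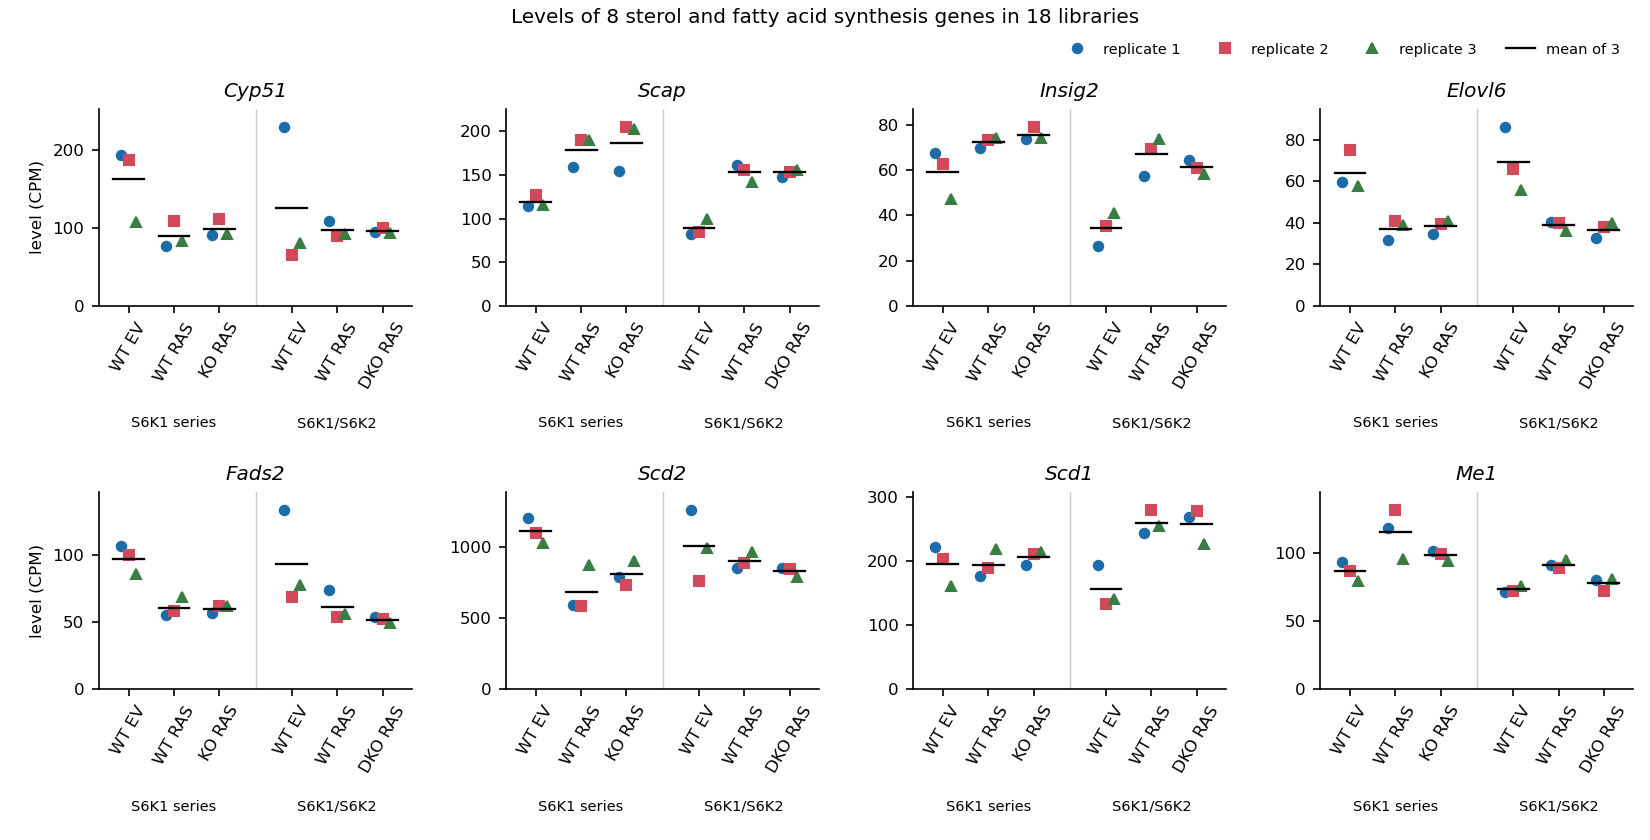
Levels in CPM (linear axis from 0) of the 8 members called for WT RAS against WT EV in at least 1 series, with 1 symbol per library by replicate number, black lines at the mean of 3, and the S6K1 series on the left of each panel. Scap was higher and Elovl6 lower in every RAS library than in every EV library of its series, and replicate 1 of WT EV in the S6K1/S6K2 series was the highest library of that series for Cyp51, Elovl6, Fads2 and Scd2.

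The first question was which of these genes respond to RAS when both kinases are present, so WT RAS was compared with WT EV. In the S6K1 series the fatty acid genes Elovl6, Fads2 and Scd2 and the sterol enzyme Cyp51 fell, and Scap rose. That is 4 of 31 members called lower, where 6.09% of all tested genes were, and 1 called higher, where 7.15% were. The median log2 fold change of the 31 members was −0.22, against 0.0018 over all tested genes, and 27 of the 31 were below 0. Groups did not overlap for 7 members with lower levels and 3 with higher levels, where the shares over all genes were 15.0% and 15.9%.

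Elovl6, the elongase that extends palmitate, was at 59.4, 75.1 and 57.8 CPM in WT EV and at 31.6, 40.7 and 38.8 CPM in WT RAS. Every RAS library was below every EV library, and the log2 fold change was −0.79 (SE 0.15, edgeR adjusted p 0.00789). Fads2, the first desaturase of polyunsaturated fatty acid synthesis, fell from 106, 99.3 and 85.4 CPM to 54.7, 57.8 and 68.1 CPM (log2 fold change −0.69 with SE 0.13, edgeR adjusted p 0.00709). For these 2 genes the call held in all 9 fits that each left out 1 library.

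Scd2 fell from 1201, 1096 and 1029 CPM to 593, 585 and 876 CPM (log2 fold change −0.70 with SE 0.17, edgeR adjusted p 0.0297). The groups did not overlap, but replicate 3 fell the least, and the call was lost without any 1 of WT EV replicates 1, 2 and 3 or WT RAS replicates 1 and 2 (adjusted p 0.0547 to 0.127). Scd1, its paralog, was at 222, 203 and 161 CPM in WT EV and 176, 189 and 218 CPM in WT RAS, and the groups overlapped (log2 fold change −0.0079, SE 0.14). Scd2 and Scd1 thus had unlike values in the same libraries.

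Cyp51, the lanosterol demethylase, was at 193, 187 and 107 CPM in WT EV and 76.7, 109 and 83.4 CPM in WT RAS (log2 fold change −0.86 with SE 0.23, edgeR adjusted p 0.0379). EV replicates 1 and 2 were far above all RAS libraries, while EV replicate 3 lay just below RAS replicate 2. Its call was lost in 7 of the 9 fits that left out 1 library, those without WT EV replicates 1 or 2, any WT RAS replicate, or KO RAS replicates 2 or 3 (adjusted p 0.0509 to 0.129). Summed macrophage markers were 1600, 1258 and 332 CPM in WT EV and 1761, 1421 and 309 CPM in WT RAS. The EV library with the lowest Cyp51 also had the lowest macrophage markers, whereas with RAS the highest Cyp51 was in replicate 2. The part of these cells in the Cyp51 values was not tested.

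Scap, the escort of SREBP, was at 114, 127 and 115 CPM in WT EV and rose to 159, 190 and 190 CPM in WT RAS (log2 fold change 0.60 with SE 0.14, edgeR adjusted p 0.0207). Its groups did not overlap. The call was lost without WT EV replicates 1 or 3 or WT RAS replicates 2 or 3 (adjusted p 0.0524 to 0.0795), with a log2 fold change of at least 0.55 in each fit that left out a library. Insig2 was at 67.7, 62.7 and 47.1 CPM in WT EV and 70.0, 73.5 and 74.3 CPM in WT RAS, which did not pass (log2 fold change 0.30, edgeR adjusted p 0.207). Me1, cytosolic malic enzyme, a source of NADPH, was at 94, 87.1 and 79.3 CPM against 119, 132 and 96.2 CPM, without overlap (log2 fold change 0.42, edgeR adjusted p 0.0731).

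The other 14 tested sterol enzymes had log2 fold changes from −0.64 (Sqle, edgeR adjusted p 0.0516) to 0.11 (Acat2), and 13 of them were below 0. At the top of the pathway, Mvk (mevalonate kinase) was at −0.45 without overlap of the groups, Pmvk at −0.22 and Mvd at −0.29. Among the later enzymes, Dhcr7, which completes cholesterol, was at −0.15 and Lss at −0.31. None of these 14 passed the test. Both SREBP genes had groups that did not overlap, with Srebf2 at −0.49 (adjusted p 0.101) and Srebf1 at −0.32 (adjusted p 0.0661). Acly and Acss2, which make cytosolic acetyl-CoA, were at −0.18 and −0.10 with overlapping groups. Nsdhl, a sterol dehydrogenase, and the elongase gene Elovl5 were both at −0.18, also with overlap.

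When the line entered as a block, pairing EV with RAS cells (replicate block), 13 members were called in place of 5. Lower were 11, where 18.1% of all genes were called lower, and higher were 2, where again 18.1% were. The 11 were Elovl6, Fads2, Scd2, Cyp51, Sqle, Mvk, Insig1, Srebf1, Srebf2, Fasn and Fads1, and Me1 joined Scap as higher. Sqle, squalene epoxidase, had −0.63 (SE 0.12, adjusted p 0.00301 with the block in edgeR), and Srebf2, which encodes SREBP2, had −0.48 (SE 0.11, adjusted p 0.00808). Fasn, fatty acid synthase, had −0.47 (SE 0.13, adjusted p 0.0214 with the block).

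The change also differed between lines. Over the 15 tested sterol enzymes, the mean change from EV to RAS on the log2(CPM + 0.5) scale was −0.46 in line 1, −0.28 in line 2 and −0.07 in line 3. In line 1, 14 of the 15 enzymes were lower with RAS, in line 2, 13 were, and in line 3, 6 were. Fatty acid genes had mean changes of −0.50, −0.37 and −0.04 in the same order. Of all 31 members, 12 were lower with RAS in all 3 lines (38.7%, against 31.5% of all tested genes), and 3 were higher (9.68%, against 31.6%).

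Turning to the S6K1/S6K2 series, Scap, Insig2, Scd1 and Me1 rose with RAS and Elovl6 fell. These were 4 of 31 members called higher, where 13.5% of all genes were, and 1 called lower, where 12.7% were. No sterol enzyme was called. The median log2 fold change was −0.075, against −0.024 over all tested genes, and 20 of the 31 members were below 0. Groups did not overlap for 4 members with higher levels (20.9% of all genes) and 1 with lower levels (21.7% of all genes).

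Scap rose from 82.4, 84.3 and 100 CPM to 161, 156 and 142 CPM (log2 fold change 0.78 with SE 0.12, edgeR adjusted p 0.00159). Insig2, which retains SCAP in the endoplasmic reticulum, rose from 26.4, 35.3 and 41.3 CPM to 57.7, 69.5 and 74.1 CPM (log2 fold change 0.97 with SE 0.17, edgeR adjusted p 0.00324). Both an activator and an inhibitor of SREBP transport were thus at higher transcript levels in the same cells.

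Elovl6 fell from 86.1, 66.0 and 55.7 CPM to 40.4, 40.0 and 36.1 CPM (log2 fold change −0.83 with SE 0.16, edgeR adjusted p 0.00576). Scd1 rose from 194, 133 and 140 CPM to 243, 279 and 255 CPM (log2 fold change 0.73 with SE 0.16, edgeR adjusted p 0.0103). For Scap, Insig2, Elovl6 and Scd1 the groups did not overlap, and the call held in all 9 fits that left out 1 library.

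Me1 rose from 71.9, 72.4 and 76.3 CPM to 91.3, 89.1 and 95 CPM (log2 fold change 0.32 with SE 0.10, edgeR adjusted p 0.0399). The groups lay close together but did not overlap. Its call was lost without WT EV replicates 1 or 2, any WT RAS replicate, or DKO RAS replicates 2 or 3 (adjusted p 0.0531 to 0.128).

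Cyp51, Fads2 and Scd2, called in the S6K1 series, were not called here. Cyp51 was at 229, 65.0 and 80.5 CPM in WT EV and 109, 88.8 and 91.5 CPM in WT RAS (log2 fold change −0.37 with SE 0.39, edgeR adjusted p 0.505). Fads2 was at 133, 68.4 and 77.3 CPM against 73.8, 53.5 and 55.8 CPM (log2 fold change −0.61 with SE 0.23, edgeR adjusted p 0.0834, or 0.0379 in the blocked fit). Scd2 was at 1259, 763 and 995 CPM against 852, 889 and 961 CPM (log2 fold change −0.16, SE 0.18). In all 3 genes the groups overlapped, and the highest EV library was replicate 1. With the block, Ebp, a sterol isomerase, was also called lower (log2 fold change −0.75 with SE 0.18, edgeR adjusted p 0.019), and no other member's call changed. The blocked fit also put DKO libraries with WT lines by number, though these came from different breedings. The blocked results for Ebp and Fads2 rest partly on that, and the share of all genes called in this blocked fit is not given here. Ebp passed without WT EV replicate 3 as well (adjusted p 0.0412), as did Fads2 without WT EV replicate 2 (adjusted p 0.0487).

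The 15 tested sterol enzymes lay between −0.79 (Ebp) and 0.46 (Hsd17b7), with SEs of 0.19 to 0.42, and the groups overlapped for every one. Mvk and Dhcr7 were both at −0.58, whereas Sc5d was at 0.21. Insig1 was at −1.02 with an SE of 0.58 (adjusted p 0.217 in edgeR), Srebf1 at −0.56 (adjusted p 0.115) and Srebf2 at −0.042. Fasn was at −0.13, Acly at 0.23 and Acss2 at 0.024. Nsdhl was at −0.041 and Elovl5 at −0.22. The SEs of the sterol enzymes were thus of the size of most of their changes.

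**Figure D2:**
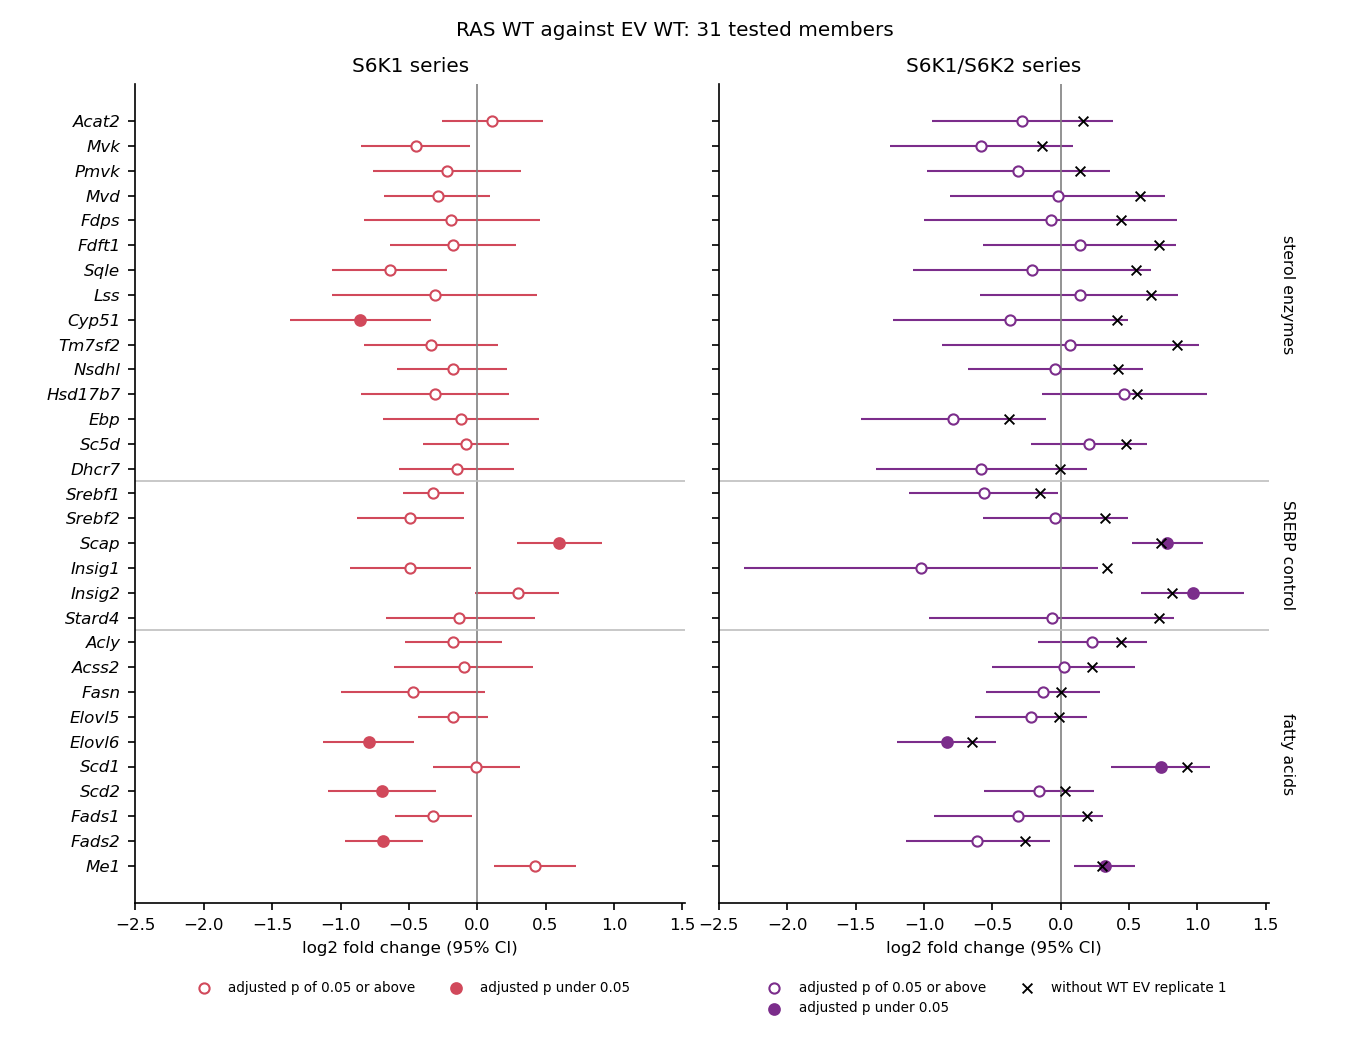
Log2 fold changes of WT RAS against WT EV with 95% confidence intervals for the 31 tested members in each series, filled where the adjusted p in edgeR was under 0.05, with crosses for the S6K1/S6K2 series without WT EV replicate 1. In the S6K1 series 27 of 31 points lie below 0, and leaving out the replicate moves the median in the S6K1/S6K2 series from −0.075 to 0.34.

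WT EV replicate 1 of the S6K1/S6K2 series stood apart in these pathways. It was the highest of the 3 EV libraries for 14 of 15 sterol enzymes and 27 of 31 members (87.1%), against 38.2% of all tested genes. Its level was a median 2.31-fold that of the mean of replicates 2 and 3 over the sterol enzymes, 1.94-fold over SREBP control and transport and 1.44-fold over the fatty acid genes, against 0.987-fold over all genes. Insig1 was at 110, 19 and 19.2 CPM in the 3 EV libraries. Sqle was at 143, 36.7 and 56.1 CPM. Stard4, a sterol carrier, was at 36.4, 11.8 and 11.1 CPM. Replicate 1 was the high library for these 3 genes. Scap and Insig2 went the other way, with replicate 1 the lowest EV library for both.

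In the same library, summed macrophage markers were 738 CPM, against 72.4 and 102 CPM in replicates 2 and 3, and Lpl, lipoprotein lipase, was at 203 CPM against 19.4 and 15.8 CPM. Summed proliferation markers were 534 CPM against 992 and 590 CPM. The summed adipocyte markers were 287 CPM against 53.8 and 42.6 CPM, with Cd36 at 42.5 CPM against 6.45 and 4.9 CPM, while Adipoq, Plin1, Cidec, Lep and Retn were at or near 0 in all 3. Fibroblast markers differed as well, with a sum of 48253 CPM against 38975 and 30090 CPM. Among them, Dcn was at 560 CPM against 89.1 and 77.5 CPM, and Lum at 529 CPM against 230 and 106 CPM. Thy1 went the other way, at 323 CPM against 692 and 767 CPM. The part of macrophages, adipocyte-type cells, differences between the fibroblasts or proliferation in the sterol gene values was not tested.

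Without this library, 9 members were called, in place of 5, with 8 higher (11.2% of all genes were called higher) and 1 lower (10.1% of all genes). Scap, Insig2 and Scd1 stayed called higher and Elovl6 lower, Me1 was no longer called (adjusted p 0.0966), and Fdft1, Lss, Tm7sf2, Sc5d and Stard4 were newly called higher. Fdft1, squalene synthase, was at 0.72 (SE 0.15, edgeR adjusted p 0.00909), and Lss, lanosterol synthase, at 0.66 (SE 0.21, adjusted p 0.0474). For Stard4 the log2 fold change went from −0.066 to 0.72 (SE 0.19, adjusted p 0.0249). The median over the 31 members went from −0.075 to 0.34, and 7 rather than 20 were below 0. Leaving out WT EV replicate 2 instead moved the median to −0.30. The sign of the members' median in this series therefore depended on which EV library was left out.

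The lines showed this directly. Over the 15 tested sterol enzymes, the mean change from EV to RAS was −0.71 in line 1, 0.47 in line 2 and 0.17 in line 3, with 14, 3 and 3 enzymes lower with RAS. SREBP control and transport had mean changes of −0.40, 0.62 and 0.25, and the fatty acid genes −0.42, 0.21 and 0.02. The mean of each role group was therefore lower with RAS in line 1 and higher in line 2. In line 3 it was higher for 2 of the role groups, while the fatty acid genes were nearly unchanged (4 lower and 6 higher).

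Levels of the sterol enzymes were closer to each other in RAS cells than in EV cells, in both series. Mean log2(CPM + 0.5) of the sterol enzymes was 5.12, 5.15 and 4.66 in WT EV of the S6K1 series and 5.53, 4.21 and 4.51 in WT EV of the S6K1/S6K2 series. With RAS it was 4.67, 4.87 and 4.59, and 4.83, 4.68 and 4.68. In the S6K1/S6K2 series the SD over 3 libraries was larger in EV than in RAS for 31 of 31 members, against 61.0% of all tested genes, and its median over the members was 0.605 in EV and 0.16 in RAS (log2 scale). With replicates 2 and 3 alone, the difference between the 2 EV libraries was the larger for 20 of 31 members (64.5%, against 57.0% of all genes). For the S6K1 series, the SD was larger in EV for 21 of 31 members (67.7%, against 46.9% of all genes), among them 12 of 15 sterol enzymes but 4 of 10 fatty acid genes, with medians over the 31 members of 0.252 in EV and 0.209 in RAS. No test of these spreads was made, since 3 libraries give a weak estimate of an SD.

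**Figure D3:**
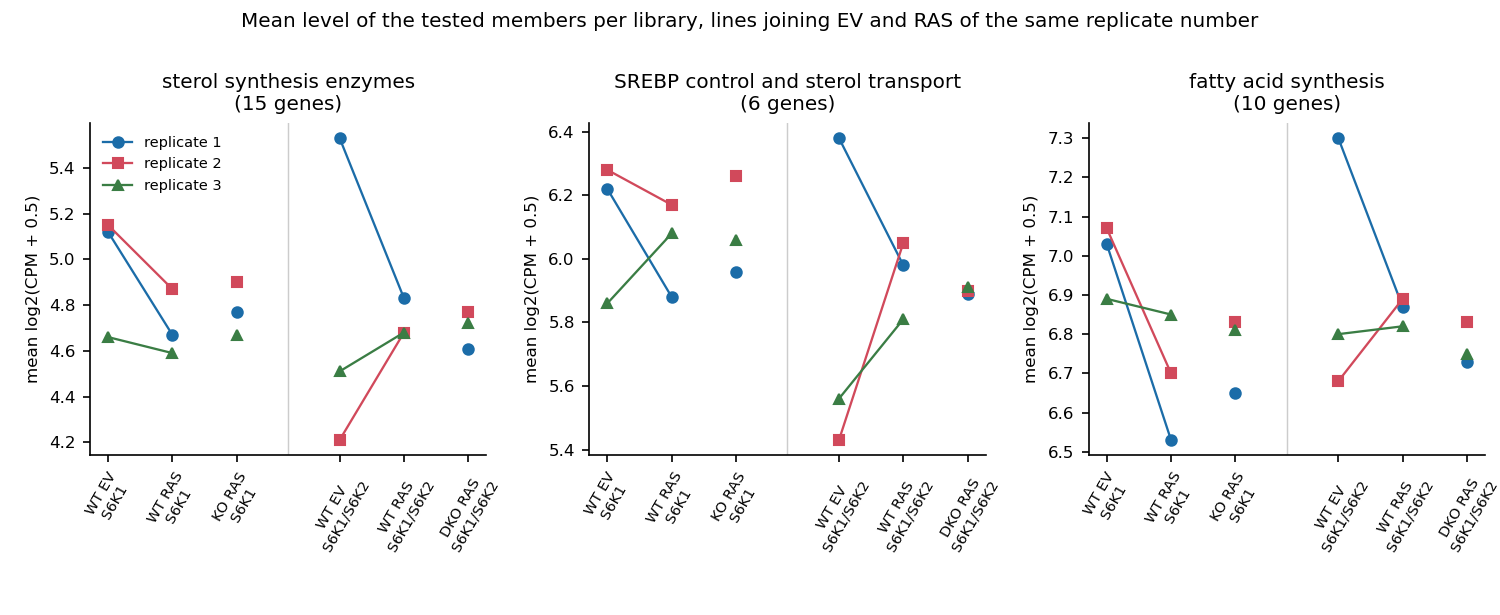
Mean log2(CPM + 0.5) of the tested members of each role group in each of the 18 libraries, with lines joining EV and RAS libraries of the same WT line (vertical axes do not start at 0). Sterol enzymes span 4.21 to 5.53 in the 6 EV libraries and 4.59 to 4.87 in the 6 WT RAS libraries.

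The difference between the RAS effects of the series was tested over all 18 libraries. Called were 0 of 31 members and 0.0% of all genes in edgeR, 3 members had an unadjusted p under 0.05, and DESeq2 called 0 as well. Those 3 were Scd1 (difference 0.73, 95% CI 0.28 to 1.19, adjusted p 0.25), Insig2 (0.66, 95% CI 0.18 to 1.14, adjusted p 0.294) and Scd2 (0.53, 95% CI 0.0043 to 1.06, adjusted p 0.395), all with the higher effect in the S6K1/S6K2 series. The median difference of 0.14 moved to 0.55 without WT EV replicate 1 of that series. The series were separate sets of cells, and an effect of the series cannot be told apart from one of a batch.

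Other genes of the pathway, 34 in number and all tested, were counted alongside. In the S6K1 series, 1 rose with RAS (Erlin1, 0.37) and 2 fell (Mylip at −1.36 and Mmab at −0.57), where 7.15% and 6.09% of all genes did. With the replicate block 5 rose and 6 fell, where 18.1% did each way. The Erlin1 call held in 0 of the 9 fits that left out a library, that of Mmab in 2 and that of Mylip in 9. Within the S6K1/S6K2 series 9 rose and 3 fell, where 13.5% and 12.7% of all genes did. Those that rose included the sterol exporters Abcg1 (1.74 with SE 0.25, edgeR adjusted p 0.00138) and Abca1 (0.50), the esterifying enzyme Soat1 (0.70) and Npc1 (0.69), which moves cholesterol out of lysosomes. In the S6K1 series none of these 4 was called, with Abcg1 at 1.14 (adjusted p 0.0516), Abca1 at −0.20, Soat1 at 0.13 and Npc1 at 0.12. Mid1ip1, Mbtps2 and Erlin2 rose by 0.77, 0.49 and 0.62. Mylip, a ligase that degrades the LDL receptor, fell (−1.20), as did Gpam (−0.58) and the SREBP protease gene Mbtps1 (−0.35, held in 1 of 9). Mylip was thus called lower in both series.

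The next comparison asked what loss of S6K1 changed in RAS cells. In KO RAS against WT RAS, 0 of 31 members were called in edgeR, where 0.00712% of all genes were, and 1 had an unadjusted p under 0.05. DESeq2 and the replicate block also called 0, and the shares of all genes that they called are not given here. The median log2 fold change was 0.063, against 0.031 over all genes, with single members between −0.23 and 0.52. Groups did not overlap for 3 of 31 members, where 8.02% of all genes did not.

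Of the 4 genes that had fallen with RAS, Scd2 had the largest difference between KO RAS and WT RAS. It was at 786, 733 and 899 CPM in KO RAS against 593, 585 and 876 CPM in WT RAS, higher in 3 of 3 pairs with overlapping groups, and did not pass (0.24, 95% CI −0.16 to 0.63, edgeR adjusted p 0.997). Elovl6 was at 34.6, 39.2 and 40.8 CPM in KO RAS (difference from WT RAS 0.045, 95% CI −0.29 to 0.38). Fads2 was at 56.3, 61.6 and 61.3 CPM (−0.011, 95% CI −0.30 to 0.27). Cyp51 was at 91.0, 111 and 92.1 CPM (0.13, 95% CI −0.38 to 0.64). Scap, which had risen, was at 155, 205 and 203 CPM (0.063, 95% CI −0.25 to 0.37). In these genes the KO RAS and WT RAS libraries overlapped. The member with the lowest p was Tm7sf2, a sterol reductase, at 11.5, 10.5 and 10.4 CPM in KO RAS and 9.05, 6 and 7.63 CPM in WT RAS, which did not pass (log2 fold change 0.52 with SE 0.22, edgeR adjusted p 0.684, or 0.114 with the block).

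For 30 of 31 members the 95% confidence interval of the S6K1 effect lay within 1 log2 unit (2-fold) of no change, and for 15 within 0.5. Of all 14036 tested genes, 10324 lay within 1 and 4725 within 0.5. Summed macrophage markers were 369, 223 and 93.6 CPM in KO RAS against 1761, 1421 and 309 CPM in WT RAS (median log2 fold change of the 12 markers −2.27, with 0 of 12 called in edgeR and 12 at an unadjusted p under 0.05). The members' median was 0.063 between the same libraries, and the part of these cells in it was not tested.

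For loss of both kinases, DKO RAS was compared with WT RAS. Of 31 members 0 were called in edgeR, where 0.0216% of all genes were, and 1 had an unadjusted p under 0.05. DESeq2 and the block called 0, again without a share of all genes to set beside it. The median was −0.055 against −0.00029 over all genes, and single members lay between −0.25 and 0.20. Groups did not overlap for 2 members, where 6.07% of all genes did not. Me1 was the member with the lowest p, at 80.4, 72.4 and 81.4 CPM in DKO RAS and 91.3, 89.1 and 95 CPM in WT RAS, without overlap (log2 fold change −0.23, 95% CI −0.46 to −0.012, edgeR adjusted p 1).

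None of the 6 genes of SREBP control and transport was called, and for 4 of them the interval lay within 1 log2 unit of no change. Scap was at 148, 153 and 156 CPM in DKO RAS (difference −0.008, 95% CI −0.27 to 0.25). Insig2 was at 64.7, 60.9 and 58.5 CPM (−0.13, 95% CI −0.50 to 0.24). Insig1 was at 23.1, 24.8 and 25.4 CPM in DKO RAS and 26.4, 26.6 and 19.8 CPM in WT RAS. Its interval, −1.29 to 1.32, was wide because the fit takes its spread from all 9 libraries of the series, the high EV library included. The intervals lay within 1 log2 unit of no change for 27 of 31 members and within 0.5 for 8, among them 0 of 15 sterol enzymes. Of all 13881 tested genes, 10394 lay within 1 and 5395 within 0.5. Without that EV library the interval limits of all 31 members lay between −0.83 and 0.67. The difference between the loss effects of the series was called for 0 of 31 members in edgeR, where 0.0069% of all genes were, with 0 at an unadjusted p under 0.05, and DESeq2 called 0. Among the other 34 pathway genes 0 were called in either loss comparison, with 1 at an unadjusted p under 0.05 in each.

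**Figure D4:**
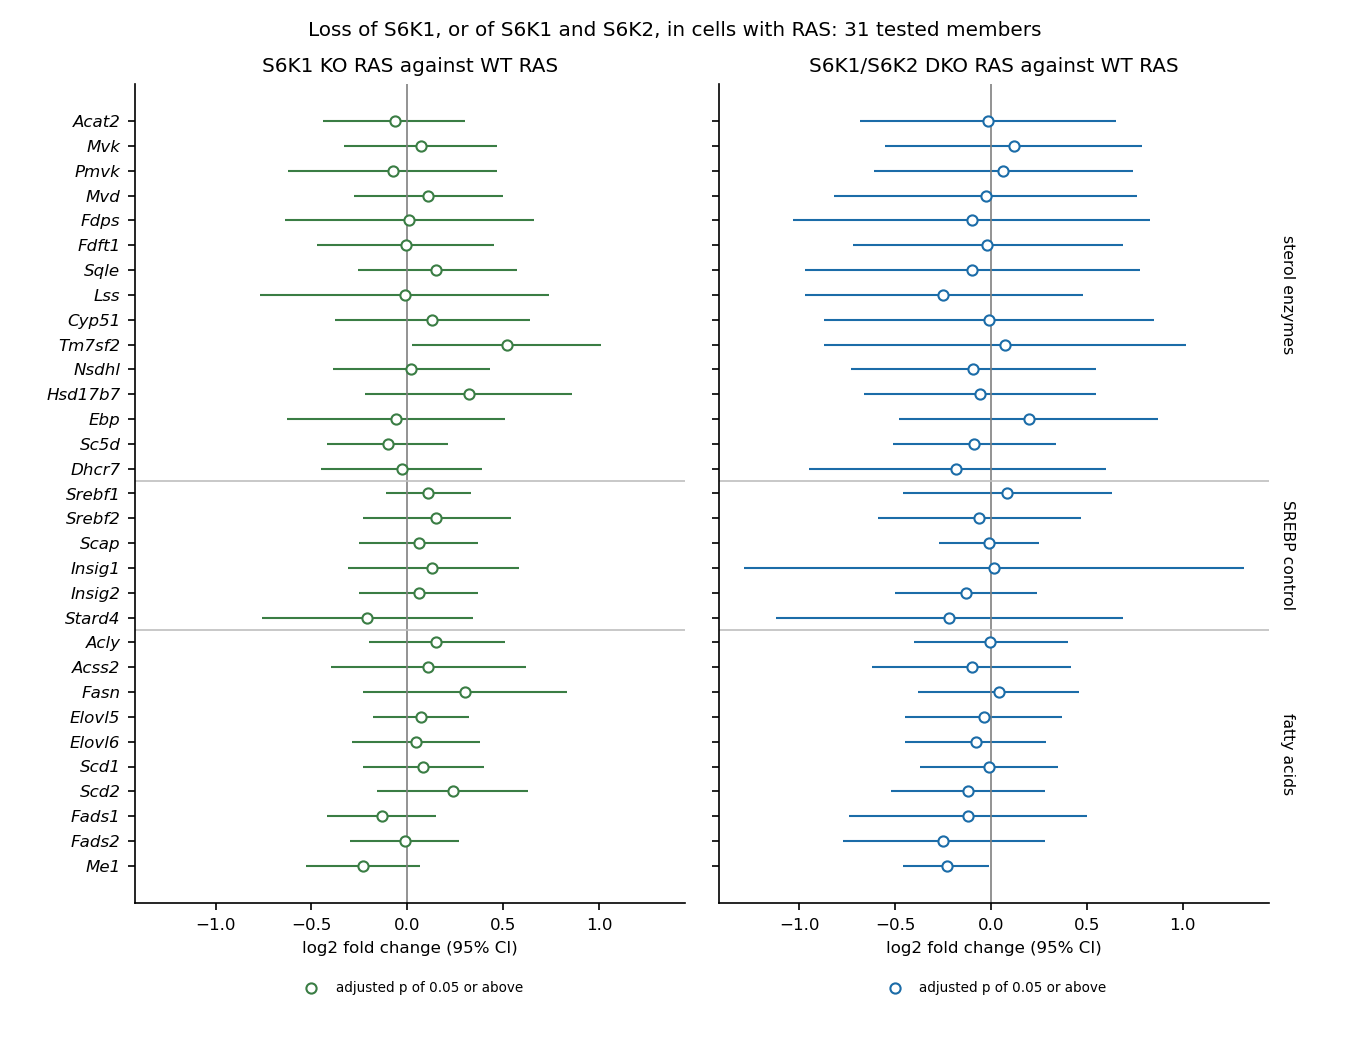
Log2 fold changes with 95% confidence intervals of KO RAS (left) and DKO RAS (right) against WT RAS for the 31 tested members, open where the adjusted p in edgeR was 0.05 or above. All points are open, and they lie between −0.23 and 0.52 on the left and between −0.25 and 0.20 on the right.

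Last, the RAS cells without the kinases were set against WT EV, with the same EV libraries as above. Vector and genotype differ together in these comparisons, and no knockout cells with EV were analysed. In KO RAS, Scap was called higher (1 of 31, where 9.55% of all genes were) and Elovl6, Fads2 and Fads1 lower (3 of 31, where 8.56% were). With the replicate block 2 were higher (20.7% of all genes) and 8 lower (20.4% of all genes). Fads1, the desaturase that acts after Fads2, was at 194, 168 and 140 CPM in WT EV and 121, 123 and 122 CPM in KO RAS, without overlap (log2 fold change −0.45, edgeR adjusted p 0.0354). It kept its call in 2 of the 9 fits that left out a library. For Scap the log2 fold change was 0.66 (SE 0.14, edgeR adjusted p 0.011), and for Elovl6 it was −0.75 (SE 0.15, edgeR adjusted p 0.00877). In DKO RAS, Scap (0.78), Insig2 (0.84) and Scd1 (0.72) were called higher (3 of 31, where 13.1% of all genes were) and Elovl6 (−0.91) and Fads2 (−0.85) lower (2 of 31, where 12.6% were), the Fads2 call holding in 6 of 9 such fits. Higher Scap and lower Elovl6 were thus called in WT, KO and DKO cells with RAS, each against the WT EV cells of its series. Calls within a series share those EV libraries and are not independent.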

How the data were processed

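mRNA of 18 MEF cultures (6 groups of 3) was sequenced, and the authors deposited raw read counts per gene, 1 column per library, over 55401 versioned Ensembl identifiers. The sources differ on how these counts were made: the submitters' processing notes name CASAVA, STAR 2.7.1a, mm10 and DESeq2 1.28.1, whereas the study's methods name TopHat, mm9 and HTSeq on single-end reads of stranded libraries, so the aligner, annotation and strand setting are not settled, and reads of overlapping genes (Acat2, Mvd, Fdps, Fdft1, Lss, Tm7sf2, Srebf1, Srebf2, Insig1, Acly, Acss2, Elovl5, Elovl6, Scd2, Fads1 and Me1 each overlap another annotated gene) may be shared. Positions are from RefSeq GRCm38.p6.

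Symbols were joined to identifiers by symbol, or by older symbol. The members and lists were chosen with earlier results of these data known. All members were named, with values per library for those called for WT RAS against WT EV or for kinase loss, or with groups not overlapping in both series in the same comparison, and a few further members (Insig1, Sqle, Stard4, Tm7sf2, Fads1) were shown after their values were seen. Markers of fibroblasts, adipocytes, macrophages, endothelial cells (at most 13.6 CPM in sum), epithelial cells (at most 2.5 CPM), hepatocytes and proliferation were summed. Values of some other pathway genes are not reported here, though the counts include them.

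The test was edgeR's (4.0.16, under R 4.3.3), fitted to the 9 libraries of each series with no covariate beside the group (filterByExpr, minimum count 10, TMM, two-sided quasi-likelihood test, Benjamini-Hochberg adjustment over all tested genes, threshold 0.05). The difference contrasts (S6K1/S6K2 series minus S6K1 series) used all 18 libraries. Shares of all genes at an unadjusted p under 0.05 are not given, so such counts describe the listed genes only. The study used DESeq2, an alternative here (version 1.42.0). Other alternatives were RLE and upper-quartile scaling, the replicate block, leaving the filter off, a floor of 10 counts in each library, all 18 libraries in 1 fit, and each library left out, and, chosen after seeing the data, WT line 1 of the S6K1/S6K2 series left out. Changes per line used log2 of CPM with a pseudocount of 0.5. The script was tested on simulated data. Sequence uniqueness was checked by exact matching of 50-base windows of coding transcripts to NCBIM37.

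To see whether replicate numbers pair libraries, each library's gene-wise distance from its group mean was correlated with that of its namesake. The correlations were 0.725, 0.467 and 0.679 for WT RAS with WT EV and 0.725, 0.419 and 0.63 for KO RAS with WT RAS in the S6K1 series, and 0.37, 0.291 and 0.321 for WT RAS with WT EV in the S6K1/S6K2 series, so these numbers were taken to pair libraries. The labels number the WT cells, and the methods give littermates for KO and WT. For DKO RAS with WT RAS they were 0.271, 0.472 and −0.042, so those numbers do not pair libraries. Replicates of a group differed by more than sampling noise (lowest chi-square per degree of freedom 8.62 over 18 pairs). Floors of 3 counts cover counting error only, since reads carry no molecular identifiers.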

Additional observations from a re-analysis of the deposited data

How the results depend on the processing

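In the S6K1 series, 5 members were called for WT RAS against WT EV, 8 by DESeq2, 13 with the replicate block, and 2 to 5 with 1 library left out (2 without WT EV replicate 1 or WT RAS replicate 2, 3 without WT EV replicate 2 or WT RAS replicate 1). In the S6K1/S6K2 series, 5 were called, 8 without a filter, 8 without both libraries of WT line 1, and 4 to 9 with 1 library left out (9 without WT EV replicate 1). For KO RAS against WT EV 4 were called, 10 with the block, and 2 to 6 with 1 library left out (2 without KO RAS replicate 2). For DKO RAS against WT EV 5 were called, 8 without line 1, and 4 to 7 with 1 library left out. Both loss comparisons and both differences between series called 0 under every alternative run. Shares of all genes called under the alternatives are not given here, apart from those printed above. Stard4 reversed in the S6K1/S6K2 series, from −0.066 to 0.72 without WT EV replicate 1 and 0.71 without line 1, with −0.34 to 0.72 over the fits that left out 1 library. The causes were not tested beyond the libraries left out. DKO and WT lines are not paired, so the block is no paired test of DKO against WT. In the S6K1/S6K2 series the blocked fit of WT RAS against WT EV also includes the DKO libraries by number. With 3 libraries a group, the intervals limit what could be called. The fit with all 18 libraries lost Cyp51 (adjusted p 0.124) and gained Me1 in the S6K1 series.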
